A study of Mus musculus with 6 samples.

Results

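Promoters shared by 2 or more genes were taken from the H3K9ac peak lists of 6 libraries of mouse intestinal epithelial cells. A member was a promoter-class interval that carried 2 or more different gene symbols and at least 1 coding transcript, and the intervals of the 6 lists were merged where they overlapped by 1 bp. This gave 1885 shared regions of 12232 coding promoter regions in all, and the other 10347 regions carried 1 gene each. Mice of strain C57BL/6 gave the chromatin, taken from distal intestine. They were monoassociated with Escherichia coli (colonized by that bacterium alone), conventionally housed or germ-free, with 2 libraries per group. Per the labels each library had about 20 M single-end reads of 50 bp, and all were made with 1 lot of antibody. The lists held 1986 and 868 nuclear intervals in the E. coli libraries, 3113 and 15348 in the conventional libraries, and 4428 and 17092 in the germ-free libraries, so the 2 lists of the conventional and of the germ-free group differed several-fold in length. The labels give no age, sex or colonization time, do not say whether the 2 libraries of a group came from separate animals, and leave the p-values below to measure the spread between libraries only. Of 8 epithelial marker genes 5 to 8 had a promoter interval in each library, against 0 of 8 leukocyte genes and 0 of 8 genes of stroma, muscle and endothelium in every library.

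Acetylation of lysine 9 on histone H3 is found on the nucleosomes that flank the starts of active genes, and the start itself is usually free of nucleosomes. Mammalian genomes hold many bidirectional promoters, in which the starts of a pair of genes lie head to head on opposite strands with a short stretch of DNA between them. Such promoters are often rich in CpG dinucleotides and poor in TATA boxes, and many of their genes serve functions that most cells need, such as mitochondrial metabolism, translation and DNA repair. Long non-coding RNAs (lncRNAs) frequently start head to head with a coding gene.

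The 1885 regions belonged to 1130 gene sets, because a promoter could hold several separate intervals: 559 gene sets had 1 region, 406 had 2, 148 had 3, 15 had 4 and 2 had 5. By the symbols listed, 792 gene sets held 2 or more coding symbols, 266 a coding gene with an lncRNA, and 41 a coding gene with a small RNA. The starts were divergent (head to head with a gap) in 806 gene sets, and in 147 the heads of the genes overlapped. They lay on the same strand in 29, and 19 gene sets had more than 2 genes. For 127 the starts could not be placed, and in 2 sets, A730008H23Rik/Hjurp and 3110001I22Rik/Bfar, the symbols were names of 1 gene in RefSeq, so those are not shared promoters. The gap of the divergent sets had a median of 145.5 bp, with quartiles of 74.25 and 295.75 bp.

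Of the 23 bidirectional pairs listed as known examples, 16 had a shared region in at least 1 library. For comparison, 1314 coding genes had a coding start on the opposite strand at most 1000 bp upstream in RefSeq. Of these, 71.5% had an interval within 1000 bp of the start in conventional replicate 2 and 67.5% in germ-free replicate 2. That share counts genes and not pairs, and nothing is read from the 16 beyond it. Windows of 300 bp follow for 7 divergent promoters, chosen because the results turn on them. They are pairs called in all 6 libraries, a pair whose jointly listed regions were called in the germ-free libraries alone (Ndufa7/Rps28), and 2 known pairs of mitochondrial and translation genes. Each window runs from 250 bases before to 50 after the start of the gene named last, which is at position 251, and all are on the + strand of GRCm38.p6, from RefSeq. Capitals mark matches to the motifs searched, on either strand, where neighbouring matches may overlap. The motif of the Ets family was CCGGAAG, that of the respiratory regulator NRF1 was GCGCATGCG and that of YY1 was AAGATGGCG. The box bound by the trimeric factor NFY was searched as CCAAT, and the site of the SP and KLF zinc finger factors as GGGCGG. The core promoter element called the TATA box was searched as TATAAA, the site of CREB as TGACGTCA, the E-box bound by helix-loop-helix factors as CACGTG, and the site of ZNF143 as ACTACAATT.
Ino80d and Ino80dos (listed as Gm11602), chr1:63114221-63114520: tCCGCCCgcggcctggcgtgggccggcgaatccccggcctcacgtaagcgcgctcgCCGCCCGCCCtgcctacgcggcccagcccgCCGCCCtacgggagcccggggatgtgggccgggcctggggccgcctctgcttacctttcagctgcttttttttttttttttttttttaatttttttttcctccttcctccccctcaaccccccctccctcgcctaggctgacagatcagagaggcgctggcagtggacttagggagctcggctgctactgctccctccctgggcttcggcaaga
Actg1 and 0610009L18Rik, chr11:120348428-120348727: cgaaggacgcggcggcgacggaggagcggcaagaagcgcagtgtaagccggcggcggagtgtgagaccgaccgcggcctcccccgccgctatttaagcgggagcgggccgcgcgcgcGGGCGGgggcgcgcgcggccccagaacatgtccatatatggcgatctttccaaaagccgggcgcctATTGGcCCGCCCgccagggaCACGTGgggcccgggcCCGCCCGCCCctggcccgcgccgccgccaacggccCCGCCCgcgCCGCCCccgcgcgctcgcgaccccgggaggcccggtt
1700052K11Rik and Tlk2, chr11:105181277-105181576: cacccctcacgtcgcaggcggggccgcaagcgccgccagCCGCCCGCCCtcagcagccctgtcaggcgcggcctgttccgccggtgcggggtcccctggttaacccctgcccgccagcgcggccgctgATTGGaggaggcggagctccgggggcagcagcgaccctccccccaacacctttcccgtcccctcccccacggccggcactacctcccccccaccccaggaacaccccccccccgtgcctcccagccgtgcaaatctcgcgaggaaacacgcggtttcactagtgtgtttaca
Ndufs1 and Eef1b2, chr1:63176581-63176880: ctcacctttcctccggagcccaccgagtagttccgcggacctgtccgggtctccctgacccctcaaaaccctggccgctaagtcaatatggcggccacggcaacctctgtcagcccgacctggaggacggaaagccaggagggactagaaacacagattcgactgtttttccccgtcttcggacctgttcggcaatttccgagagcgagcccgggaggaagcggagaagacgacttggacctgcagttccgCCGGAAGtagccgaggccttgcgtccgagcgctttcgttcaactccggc
Rps28 and Ndufa7, chr17:33824322-33824621: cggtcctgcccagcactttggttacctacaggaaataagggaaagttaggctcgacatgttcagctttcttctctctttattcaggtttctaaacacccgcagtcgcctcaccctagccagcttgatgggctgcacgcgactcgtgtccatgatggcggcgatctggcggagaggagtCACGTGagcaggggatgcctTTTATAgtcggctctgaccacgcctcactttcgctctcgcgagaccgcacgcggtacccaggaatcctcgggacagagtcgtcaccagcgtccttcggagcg
Uqcrh and Lrrc41, chr4:116075019-116075318: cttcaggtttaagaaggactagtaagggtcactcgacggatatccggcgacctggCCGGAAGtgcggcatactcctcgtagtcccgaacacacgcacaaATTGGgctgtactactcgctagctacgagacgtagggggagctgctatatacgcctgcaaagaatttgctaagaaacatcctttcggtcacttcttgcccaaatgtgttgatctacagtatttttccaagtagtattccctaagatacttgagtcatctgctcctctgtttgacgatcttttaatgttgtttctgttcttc
Mrps12 and Sars2, chr7:28741718-28742017: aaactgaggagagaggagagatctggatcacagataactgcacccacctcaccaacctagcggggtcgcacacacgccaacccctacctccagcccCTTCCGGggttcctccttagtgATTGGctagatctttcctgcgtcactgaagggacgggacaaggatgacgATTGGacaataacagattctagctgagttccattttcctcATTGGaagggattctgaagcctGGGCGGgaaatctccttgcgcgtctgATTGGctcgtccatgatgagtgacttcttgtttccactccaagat

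The partner starts at position 47 in the window of Ino80dos, 68 in that of 0610009L18Rik, 157 in that of Tlk2, 242 in that of Eef1b2, 241 in that of Ndufa7, 52 in that of Lrrc41 and 104 in that of Sars2. The windows held 25, 53, 29, 27, 24, 15 and 11 CpG dinucleotides in that order, against a median of 24 over the shared promoters and 13 over all 17492 coding genes of the promoter table. The window of Sars2, which encodes the mitochondrial seryl-tRNA synthetase, held 4 CCAAT matches and 1 Ets match. The window of Ndufa7, a subunit of respiratory complex I, held the 1 TATAAA among the 7. A match is a description of the letters and not of a bound factor.

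No difference in width between shared and single-gene intervals passed the test. The median width of shared intervals was 195 and 242 bp in the E. coli libraries, 227.5 and 315 bp in the conventional libraries and 211 and 327 bp in the germ-free libraries. Single-gene intervals had medians of 201 and 203 bp, 231 and 315 bp, and 212 and 305 bp in the same order. Shared intervals were wider in 2 libraries, narrower in 3 and equal in 1. The mean difference of 8.42 bp ± 18.1 (shared minus single-gene, SD, n = 6 libraries) did not pass the threshold (two-sided exact sign-flip permutation p = 0.5, Benjamini-Hochberg adjusted over 4 differences 0.667, smallest possible p 0.03125).

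**Figure D1:**
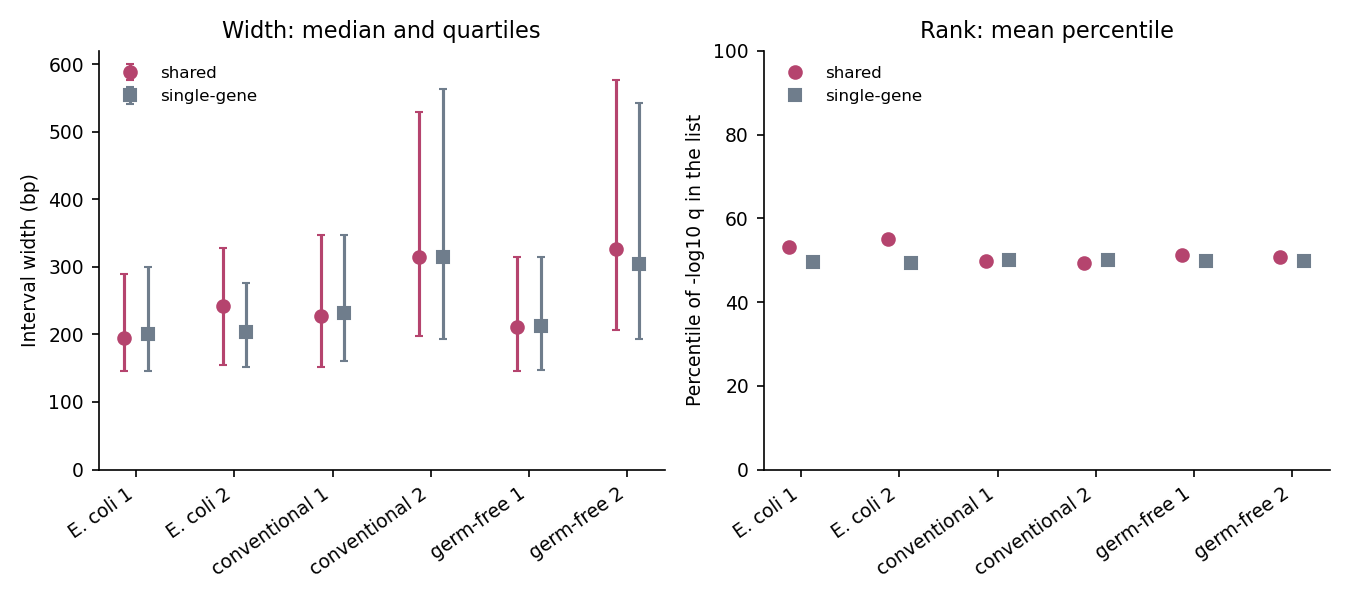
Left, median interval width in bp with its quartiles; right, mean percentile of −log10 q within the list, for shared (circles) and single-gene (squares) promoter intervals in each library. The shared medians of 195 to 327 bp lie within the quartiles of the single-gene intervals in every library.

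The significance of the shared intervals was given as the percentile of the authors' −log10 q among coding promoter intervals of the same list. The lists held only 15 to 32 distinct values, so many intervals tied, and the medians of both classes were equal in 5 libraries. In E. coli replicate 1 the median percentile was 63.8 for shared and 42.7 for single-gene intervals. By mean percentile, shared intervals stood at 53.2 and 55.0 in the E. coli libraries, 49.7 and 49.4 in the conventional and 51.1 and 50.8 in the germ-free libraries, against 49.5 and 49.3, 50.1 and 50.1, and 49.8 and 49.8 for single-gene intervals. The median difference averaged 3.52 percentile points ± 8.63 (SD, n = 6 libraries, exact sign-flip permutation p = 1) and was 0 without E. coli replicate 1. With only 1 library away from 0, the test returns that p whatever the size of the difference, so it decides nothing here. The mean percentile, added after the data were seen, differed by 1.76 points and was higher for shared intervals in 4 of 6 libraries. That difference did not pass the threshold (exact sign-flip permutation p = 0.156, adjusted 0.208).

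Very wide marks were present at shared promoters in the 2 longest lists. Shared intervals of 2000 bp or more numbered 0 in both E. coli libraries, 0 and 7 in the conventional and 0 and 14 in the germ-free libraries, against 3 and 2, 8 and 60, and 4 and 92 single-gene intervals. Those shared intervals were 0.468% of all shared intervals in conventional replicate 2 and 0.952% in germ-free replicate 2, beside 0.729 and 1.17% of the single-gene intervals. The widest shared region, 4192 bp at Kmt2e (a SET-domain protein of the MLL family) and the lncRNA 5031425E22Rik, was narrower than the widest single-gene region, 6857 bp.

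Once a region was in any list, its call rate varied far more between libraries than between shared and single-gene promoters. Shared regions were called at 7.59 and 3.18% in the E. coli libraries, 16.7 and 74.5% in the conventional libraries and 21.5 and 73.1% in the germ-free libraries. Single-gene regions were called at 7.49 and 3.46%, 16.0 and 74.1%, and 19.3 and 69.3%. Shared regions were higher in 5 of 6 libraries, by a mean of 1.14 percentage points ± 1.54 (SD, n = 6 libraries), which did not pass the threshold (exact sign-flip permutation p = 0.0938, adjusted 0.188). Of the shared regions 870 were called in 1 library only, 565 in 2, 235 in 3, 114 in 4, 63 in 5 and 38 in all 6. The 38 were 2.02% of shared regions, beside 190 single-gene regions (1.84%) and 1.86% of all coding promoter regions.

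Genes annotated as divergent carried a call about 2 times as often as isolated genes, both counted from the RefSeq annotation and not from the lists. Of 2002 coding genes with an opposite-strand start at most 1000 bp upstream, 7.29 and 3.10% had an interval within 1000 bp of the start in the E. coli libraries, 16.8 and 63.4% in the conventional and 20.7 and 58.5% in the germ-free libraries. Of 14110 isolated genes, which had no other start within 1000 bp, 3.59 and 1.59%, 7.42 and 27.4%, and 8.88 and 24.3% had one. The divergent genes were higher in 6 of 6 libraries, with ratios from 1.94 to 2.41 and a mean difference of 16.1 percentage points ± 15.2 (SD, n = 6 libraries). The exact sign-flip permutation p was 0.03125, the smallest that 6 libraries allow, and 0.125 after adjustment over the 4 differences, which is above the threshold. The call rate had no steady order over the gap between the starts. In conventional replicate 2 it was 64.2% at gaps of 0 to 100 bp, 61.1% at 101 to 200 bp, 64.9% at 201 to 300 bp, 66.1% at 301 to 500 bp and 61.4% at 501 to 1000 bp, and in germ-free replicate 2 it was 56.7, 58.7, 66.9, 62.9 and 48.0% over the same gaps.

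**Figure D2:**
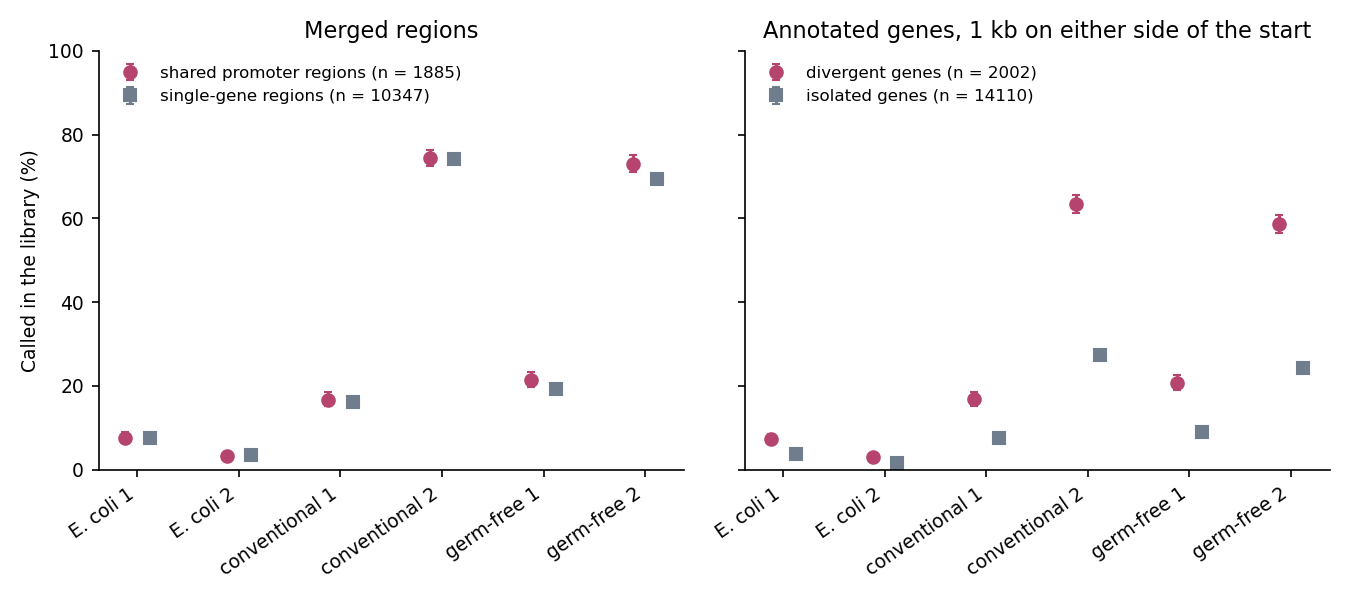
Percent called in each library with 95% Wilson intervals, which cover counting error only; left, merged shared (circles) and single-gene (squares) regions; right, annotated divergent (circles) and isolated (squares) coding genes. The left panel's classes lie within 3.77 percentage points of each other, whereas on the right the divergent genes are above the isolated genes in 6 of 6 libraries.

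Both the side of the start and the CpG content moved with the difference. A window on both sides of a divergent start also holds the partner's side, and a count restricted to the gene's own side, from the start to 1000 bp downstream, gave 4.50 and 1.80% of divergent genes in the E. coli libraries, 10.8 and 48.0% in the conventional and 13.6 and 44.4% in the germ-free libraries. The isolated genes then had 3.29 and 1.41%, 6.97 and 26.0%, and 7.96 and 22.7%, so the mean difference was 9.12 percentage points (higher in 6 of 6 libraries, exact sign-flip permutation p = 0.03125, adjusted 0.125). The promoter windows of divergent genes held a median of 24 CpG dinucleotides, against 10 for isolated genes. Within 5 quintiles of the CpG count the difference over both sides was 5.91 points (6 of 6 libraries, exact p = 0.03125). It ranged from 0.252 to 14.5 points over the libraries. Each quintile had equal weight, although the lowest held 28 divergent genes and the highest 886. In the highest quintile alone it was −0.121 and −0.530 points in the E. coli libraries, 4.01 and 16.2 in the conventional and 5.97 and 16.5 in the germ-free libraries. With the own side and the CpG quintiles together, again at equal weight, the difference was 1.48 points and positive in 3 of 6 libraries (exact p = 0.406). The counts on the own side and within quintiles were added after the data were seen.

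**Figure D3:**
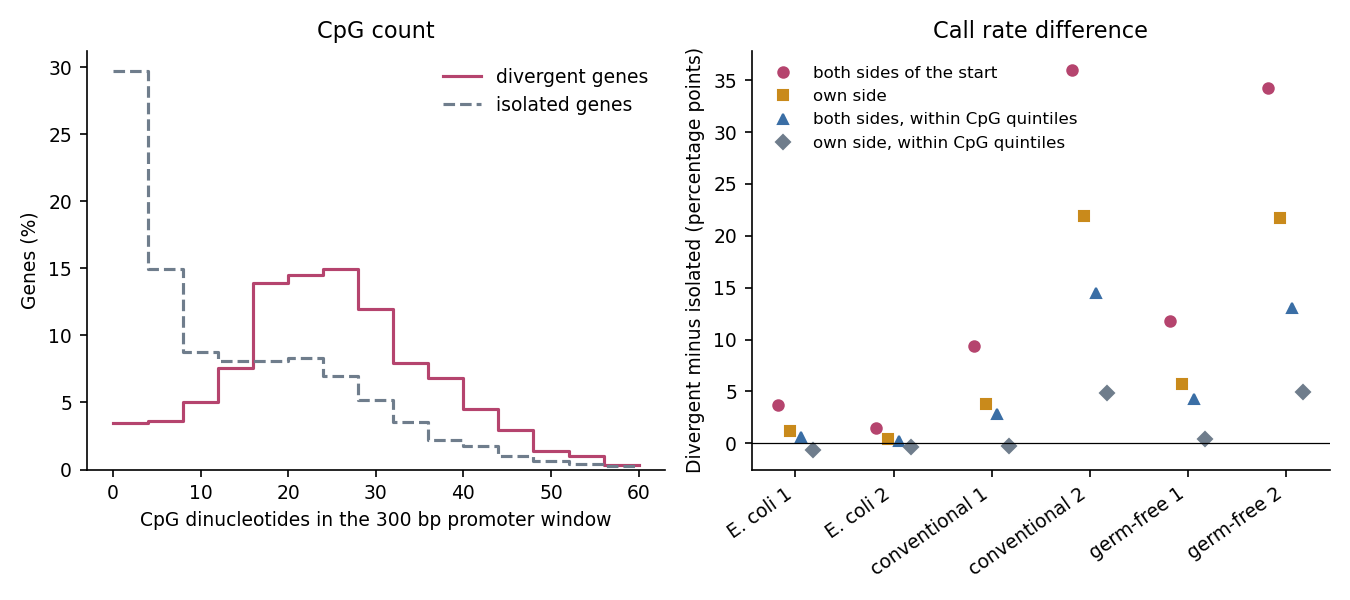
Left, CpG dinucleotides in the 300 bp promoter window of divergent (solid line) and isolated (dashed line) genes; right, divergent minus isolated call rate in percentage points for each library, counted on both sides of the start or on the gene's own side, with and without CpG quintiles. The differences of 1.5 to 36.0 points over both sides shrink to between −0.684 and 4.96 points with the own side and the quintiles together.

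The kind of partner also went with the call rate. Divergent genes with a coding partner (n = 1314) were called at 7.91 and 3.27% in the E. coli libraries, 18 and 71.5% in the conventional and 23.1 and 67.5% in the germ-free libraries. Those with an lncRNA partner (n = 688) were called at 6.10 and 2.76%, 14.5 and 48.0%, and 16.0 and 41.4%. The coding partner was higher in 6 of 6 libraries, by a mean of 10.4 percentage points (exact sign-flip permutation p = 0.03125, unadjusted, not planned beforehand). The window here again held the partner's side, and no count on the own side was made by kind of partner. Both genes of a coding pair could enter the count. Among the merged regions, which had all been called at least once, the order was the other way round. Regions of a coding gene and an lncRNA (n = 431) were called at 11.4 and 4.64%, 19.5 and 75.2%, and 24.8 and 72.9%, against 5.89 and 2.46%, 14.8 and 74.4%, and 20.1 and 72.8% for 1342 regions of coding pairs. That difference averaged 2.98 points and had the same sign in 6 of 6 libraries (exact p = 0.03125, unadjusted), a comparison chosen after the data were seen. It ranged from 0.052 to 5.48 points. The lncRNA regions were also wider, with a median of 419 bp against 356.5 bp, and a call needed an overlap of only 1 bp. Whether width went with the difference was not tested. Of the lncRNA regions 16 (3.71%) were called in all 6 libraries, as were 16 (1.19%) of the coding pairs. Those coding pairs, classed by the symbols listed, include A730008H23Rik/Hjurp, which is 1 gene under 2 names.

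The marked intervals flanked the pair of starts. At divergent pairs with a gap of at most 1000 bp, 84.4 to 90.9% of shared intervals lay wholly outside both starts. The median distance from the interval's centre to the midpoint between the starts was 474 and 498 bp in the E. coli libraries, 495 and 469 bp in the conventional and 510 and 522 bp in the germ-free libraries. An interval spanned both starts in 57 of 1076 cases (5.30%) in conventional replicate 2. Promoters with 2 or more separate intervals made up 13.1 and 5.56% of the marked divergent promoters in the E. coli libraries, 12 and 45.3% in the conventional and 20.9 and 46.9% in the germ-free libraries. An interval had to lie near both genes to be listed with both, which limits how far out a shared interval can be.

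**Figure D4:**
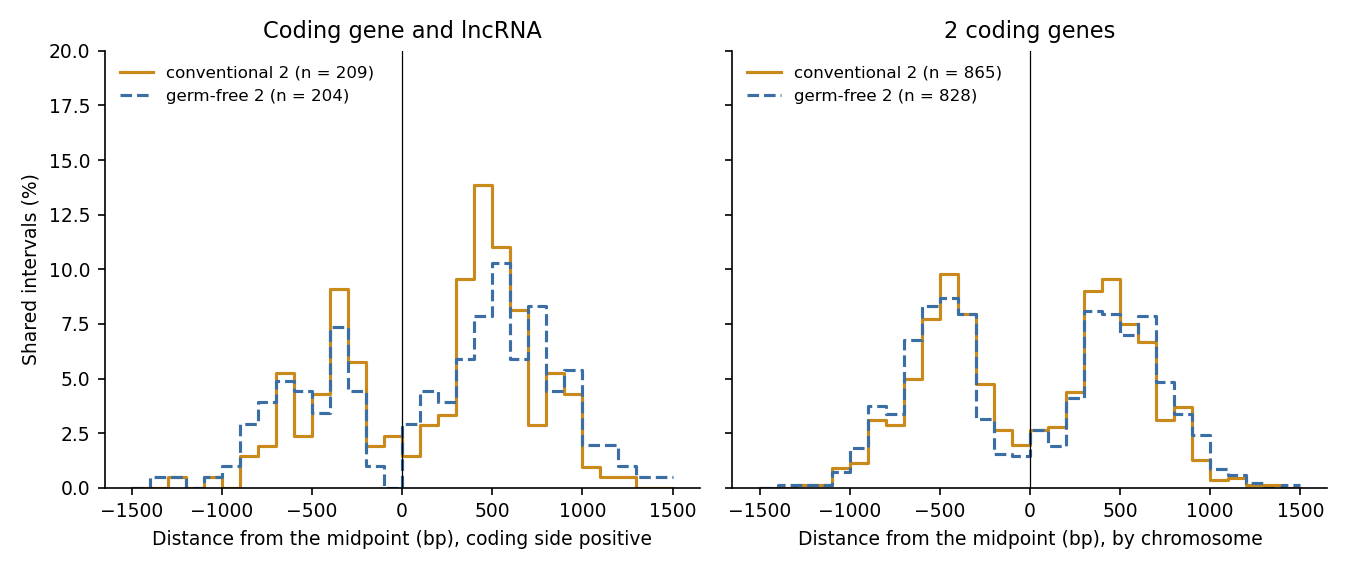
Percent of shared intervals at divergent promoters by the distance of the interval's centre from the midpoint between the starts, in bins of 100 bp, for the longest conventional and germ-free lists (conventional 2, solid; germ-free 2, dashed). Both panels have a trough at the midpoint, and the left panel is higher on the coding side.

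Where the partner was an lncRNA, the mark lay more often over the coding gene. The coding side held 75 and 73.3% of these intervals in the E. coli libraries (n = 32 and 15), 69.8 and 64.6% in the conventional (n = 53 and 209) and 65.2% in both germ-free libraries. All 6 libraries were above 50% (mean 68.9%, exact sign-flip permutation p = 0.03125, unadjusted, not planned beforehand). At isolated single-gene promoters 88.5 and 84.7%, 89.7 and 80.9%, and 83.5 and 75.9% of intervals had their centre downstream of the start.

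Of the 12 regions called in all 6 libraries with the highest mean percentile, 9 paired a coding gene with an lncRNA and 2 a coding gene with a small RNA. Over all 1885 shared regions 431 were of a coding gene and an lncRNA. Of the 38 called in all 6 libraries 16 were, as many as were classed as coding pairs, A730008H23Rik/Hjurp among them. The remaining one of the 12 was A730008H23Rik/Hjurp, 1 gene under 2 names. The fold enrichment over background given here is the authors' own value for each interval, at its most significant summit, and is read only within a list.

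Ino80d, a subunit of the INO80 chromatin remodeller, and Ino80dos led that list at chr1:63112758-63114624. Its fold was 14.8 and 13.5 in the E. coli libraries, 12.7 and 31.1 in the conventional libraries and 13.9 and 18.4 in the germ-free libraries. The interval was 1217 and 876 bp wide, 1411 and 1778 bp, and 1444 and 1867 bp in the same order. Its percentile was 99.5 or more in every list. Actg1, which encodes cytoplasmic gamma-actin, had a fold of 8.88 and 7.13 in the E. coli libraries, 10.6 and 15.2 in the conventional and 8.08 and 13.9 in the germ-free libraries. Its interval at chr11:120347808-120350291 was 940 and 631 bp, 365 and 2371 bp, and 328 and 2484 bp wide, so its breadth varied within each group.

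Kmt2e, at chr5:23431964-23436155, had intervals of 758 and 486 bp in the E. coli libraries, 911 and 2940 bp in the conventional and 507 and 4192 bp in the germ-free libraries. Tlk2, a kinase that acts on histone chaperones, had intervals of 869 and 492 bp, 1057 and 2341 bp, and 1021 and 2279 bp at chr11:105180768-105183140. Flcn (folliculin, a tumour suppressor) had a fold of 7.10 and 6.41 in the E. coli libraries, 9.20 and 12.3 in the conventional and 10.4 and 12 in the germ-free libraries. In each of these 3 the widest intervals were those of conventional replicate 2 and germ-free replicate 2, the 2 longest lists. Gata5, a transcription factor of the intestinal epithelium, shared chr2:180331771-180335359 with the lncRNA Gm14318, and its fold was 8.88 and 7.13, 12 and 13.8, and 6.93 and 8.87. In E. coli replicate 2 its interval had no percentile among coding promoter intervals, so its mean percentile leaves out that list. Pfdn4 (a subunit of the prefoldin chaperone), Zbtb7b (a zinc finger transcription factor), Gna13 (a G protein alpha subunit), Anxa2 (annexin A2) and Epc1 (a subunit of the NuA4 acetyltransferase complex) completed the 12, with mean percentiles from 91.0 to 99.6.

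Lrrc41 and Uqcrh (a subunit of respiratory complex III) had the widest region of a coding pair, 2959 bp at chr4:116074674-116077632. Its interval was 146 and 161 bp wide in the E. coli libraries, 1121 and 1722 bp in the conventional and 175 and 2942 bp in the germ-free libraries. The region with most genes was that of Rpl13a, a ribosomal protein gene, with Mir5121 and the small nucleolar RNAs Snord32a, Snord33 and Snord34. It was called in conventional replicate 2 with a fold of 3.62 and in germ-free replicate 2 with a fold of 8.24. Small nucleolar RNAs lie within introns of ribosomal protein genes, so these symbols mark hosted genes and not head-to-head starts. In all, 24 small nucleolar RNA genes and 27 microRNA genes were listed in shared regions.

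Hadha and Hadhb, the subunits of the mitochondrial trifunctional protein of fatty acid oxidation, were the 1 known pair of the 23 that was called in all 6 libraries. Their starts are 273 bp apart on chromosome 5. The fold was 5.92 and 5.70 in the E. coli libraries, 5.66 and 9.41 in the conventional and 5.77 and 10.8 in the germ-free libraries. The known pairs were called in 2 and 1 of 23 cases in the E. coli libraries, 8 and 16 in the conventional and 9 and 13 in the germ-free libraries. Counted by the symbols of each interval, before regions were merged, there were 1134 shared gene sets, not the 1130 of the merged regions. Each was joined over its intervals, and the share called was 11.02 and 4.85%, 24.5 and 87.0%, and 31.0 and 83.9% in the same order. Every one of those sets had at least 1 call, unlike 7 of the 23 pairs. Cbx3/Hnrnpa2b1 (heterochromatin protein 1 gamma and an RNA-binding protein) was called in 5 libraries, and Cox4i1/Emc8, Atp5c1/Kin and Dhx38/Txnl4b in 4.

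Of the DNA repair pairs named here, Brca1/Nbr1 was called in 3 libraries, Atm/Npat in 2 and Nthl1/Tsc2 in 1. Pairs of other functions were also called in only 2 or 3 libraries, as given below. Psmb9/Tap1, an immunoproteasome subunit and a peptide transporter of antigen presentation, had intervals in both conventional libraries and in none of the other 4, but those of the 2 libraries did not overlap. They were 161 bp wide in replicate 1 (chr17:34187091-34187251), and 147 and 205 bp wide in replicate 2 (chr17:34186582-34186728 and chr17:34187945-34188149), at percentiles of 24.6 in replicate 1 and 4.33 in replicate 2. Hspd1/Hspe1, the mitochondrial chaperonins, was called in 3 libraries and Mrps12/Sars2 in 2. Irf3/Bcl2l12 and Ndufs1/Eef1b2 were called in 3, and Surf1/Surf2 in 2. The 7 pairs with no shared region included Col4a1/Col4a2, Prkdc/Mcm4, Tbp/Psmb1, Ppat/Paics, Mutyh/Toe1 and Ung/Alkbh2. Tbp had a coding promoter interval in 2 libraries and Psmb1 in 1, but none was listed with both genes. The rest of the 7 had no coding promoter interval at either gene, and weaker enrichment is not in the lists.

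Gene groups differed in how many of their marked genes lay in shared regions. The groups were taken by the start of the gene symbol or from a list. Some members are therefore not what the group name says, such as Rab3ip among the Rab genes and the assembly factor gene Ndufaf3 in the respiratory chain group. Over all 8094 coding genes with a coding promoter interval, 1909 (23.6%) were in a shared region. The share was 77.4% for histones (24 of 31), whose genes lie in clusters with many head-to-head pairs, and 47.4% for the DNA repair genes (9 of 19, among them Atm, Brca1, Fancd2 and Xpc). For cytosolic ribosomal proteins it was 43.6% (34 of 78), for mitochondrial ribosomal proteins 42.2% (27 of 64) and for the respiratory chain 36.0% (32 of 89). The tRNA synthetases stood at 32.3% (10 of 31), the Tmem genes at 28.8% (38 of 132) and the proteasome at 26.2% (11 of 42). Genes named Slc (solute carriers) were near the share of all genes, 22.1% (34 of 154), as were genes named Rab, 19.0% (8 of 42). Zinc finger genes named Zfp stood at 12.4% (26 of 209). Of 21 marked intestinal transcription factors Gata5 alone was in a shared region, and none was of the 21 marked genes on a list of adhesion, junction and microvillus genes (among them Vil1, Cdh1, Epcam, Tjp1 and Ezr). That list is not complete, since the junction gene Tjp3 and the brush border transporter gene Slc6a19 are not on it and both lay in shared regions. No test was run on these shares, and the call lists do not tell how many genes of each group lie head to head without a mark.

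**Figure D5:**
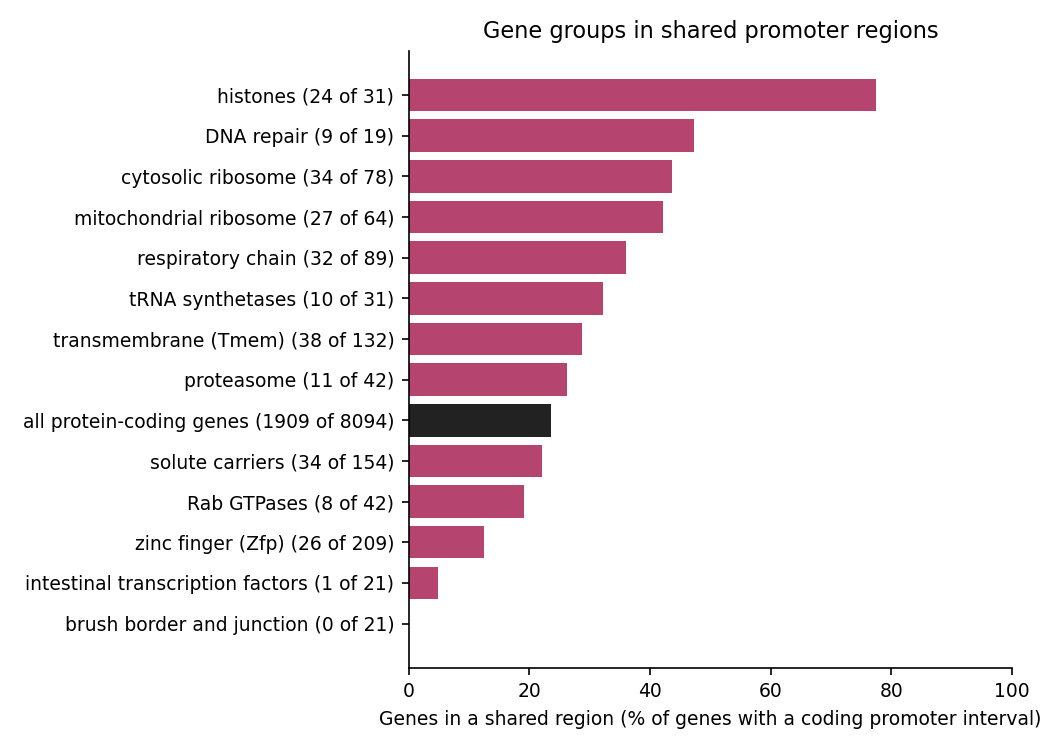
Percent of the marked coding genes of each group that lie in a shared promoter region, with the counts in the labels; the dark bar is all marked coding genes (23.6%). Histones stand highest at 77.4%, and the 21 listed brush border and junction genes at 0.

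Within those groups the call rate again went with the library. Of the 27 mitochondrial ribosomal protein genes, 4 and 1 had a shared interval in the E. coli libraries, 3 and 26 in the conventional and 8 and 23 in the germ-free libraries. Of the 34 cytosolic ribosomal protein genes, 2 and 1, 6 and 28, and 13 and 32 did. Of the 24 histone genes, 0 and 0, 4 and 16, and 2 and 20 did. Of all 1909 coding genes in shared regions, 195 and 84 had one in the E. coli libraries (10.2 and 4.40%), 453 and 1679 in the conventional (23.7 and 88.0%) and 581 and 1613 in the germ-free libraries (30.4 and 84.5%). Nothing is read from the groups beyond that background.

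Shared and single-gene promoters held some motifs at different shares, given here as descriptions with no test. Of 1909 coding genes of shared regions, 1618 matched a promoter window. The Ets motif CCGGAAG was found in 30.9% of these windows, against 19.3% of 5000 single-gene windows and 11.9% of all coding promoters. The YY1 motif AAGATGGCG was found in 5.32%, against 3.28% and 1.92%. TATAAA was found in 5.07%, against 6.74% and 13.3%. The other motifs were the NRF1 motif GCGCATGCG (4.57%, against 4.22 and 2.41%), CCAAT (39.4%, against 36.5 and 39.2%), GGGCGG (67.2%, against 67.6 and 46.3%), TGACGTCA (4.26%, against 3.32 and 2.33%), CACGTG (9.83%, against 10.5 and 7.91%) and ACTACAATT (1.11%, against 0.68 and 0.543%). The median GC content was 62.7% in shared windows and 61.7% in single-gene windows, and the median CpG count 24 and 22. Divergent genes with a coding partner held CCGGAAG in 29.0% of windows, those with an lncRNA partner in 15%.

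The share of coding promoter intervals that were shared lay between 14.4 and 15.9% in all 6 libraries. It was 14.7 and 14.4% in the E. coli libraries, 14.6 and 15.4% in the conventional and 15.9 and 15.8% in the germ-free libraries. The E. coli mean of 14.5% ± 0.223 stood beside the germ-free mean of 15.8% ± 0.0824, a difference of −1.33 percentage points (SD, n = 2 each, exact permutation p = 0.3333). The conventional mean of 15% ± 0.542 differed by −0.838 points from the germ-free mean (exact permutation p = 0.3333) and by 0.495 points from the E. coli mean (exact permutation p = 0.667). With 2 libraries a group no smaller p than 0.3333 is possible. The E. coli difference changed sign with equal list lengths (0.228 points) and so did that of the conventional group (0.683 points).

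Few shared regions were called in both libraries of 1 group and in neither of another, apart from those missing in the short E. coli lists. Of 41 shared regions called in both E. coli libraries, 0 lacked a call in both conventional libraries (background over all coding promoter regions 0%) and 0 lacked one in both germ-free libraries (background 0.389%). Of 300 called in both conventional libraries, 191 (63.7%) had no call in either E. coli library, beside a background of 61.6%, and 13 (4.33%) had none in either germ-free library, beside 5.22%. Of 350 called in both germ-free libraries, 232 (66.3%) had no call in the E. coli libraries, beside 65.0%, and 25 (7.14%) had none in the conventional libraries, beside 4.66%. Counted per gene set, with the regions listed under the same symbols joined, 6 of 295 (2.03%) were called in both conventional and neither germ-free library. In the opposite direction the count was 11 of 344 (3.20%). A region listed with a further symbol, or with 1 gene alone, was not joined, so these were not counts of whole promoters. The counts of regions rested on list length and on single libraries. With the lists brought to equal length, the 0 and 0 of the E. coli libraries were 6 and 6, the 191 and 13 of the conventional libraries were 6 and 5, and the 232 and 25 of the germ-free libraries were 8 and 5. Without conventional replicate 1 the 191 and 13 regions were 1251 and 446, and without germ-free replicate 1 the 232 and 25 were 1223 and 436. Without germ-free replicate 2 the 13 and 25 were 109 and 53, and without conventional replicate 2 the 25 were 163.

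The regions called in both conventional libraries and neither E. coli library were led by Tapbpl, a homologue of the peptide-loading protein tapasin, with the lncRNA E130112N10Rik. Its fold was 9.20 and 10.1 in the conventional libraries, and it was also called in both germ-free libraries, at 9.23 and 7.60. Stam, an adaptor of endosomal sorting, C8g/Fbxw5, Lats1 (a Hippo pathway kinase), Cdc42se1/Mllt11 and Cnppd1/Fam134a followed. Those called in both germ-free libraries and neither E. coli library were led by Hnrnpa3, with Cbx3/Hnrnpa2b1, Dhx38/Txnl4b, Sbds/Tyw1, Rbbp6 and Chdh/Il17rb next. Sbds, a ribosome maturation factor, and Tyw1 had a fold of 4.95 and 10.1 in the conventional libraries and 8.08 and 10.8 in the germ-free libraries.

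Some regions that differed between conventional and germ-free lists lay beside another region of the same genes with other calls. Rpl9 (a ribosomal protein) and Lias (lipoic acid synthetase) had a region at chr5:65391534-65391991 that was called in both germ-free libraries, with a fold of 5.19 and 8.24, and in neither conventional library. On the other side of the starts, chr5:65390350-65391290 was called in both conventional libraries and in germ-free replicate 2. Gas5/Zbtb37 (Gas5 is a small nucleolar RNA host gene) had a region at chr1:161034568-161034883 called in both conventional and neither germ-free library. Its region at chr1:161035230-161035431 was called in both germ-free and neither conventional library. Mrps18b/Ppp1r10 had a region at chr17:35915862-35916331 of the germ-free pattern, while the region listed for Mir1894/Mrps18b/Ppp1r10 was called in all 6 libraries.

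Rps28 (a ribosomal protein) and Ndufa7, whose starts are 10 bp apart, had no such second region listed under both symbols in the conventional lists. Their region at chr17:33824742-33824991 was called with a fold of 5.19 and 8.24 in the germ-free libraries, at percentiles of 37.4 and 86.4. Its interval was 148 and 250 bp wide. No region listed under these symbols was called in the other 4 libraries. Intervals listed with 1 of these genes alone, or with a further symbol, were not searched. Ppm1b, a protein phosphatase, and Hist1h2bb/Hist1h3c were also among the 6 named regions of the germ-free pattern. Mdh1/Wdpcp (cytosolic malate dehydrogenase and a planar polarity effector), Setd5, Acss1 and Gstz1/Pomt2 were among the named regions called in both conventional and neither germ-free library. Mdh1/Wdpcp had a fold of 4.95 and 6.52 there, at percentiles of 24.6 and 67.1 of their lists. Several of these promoters had a further region that broke the pattern. A second Setd5 region, chr6:113077534-113079074, was called in both conventional and both germ-free libraries, and an Acss1 region, chr2:150668451-150668677, in conventional replicate 2 and germ-free replicate 2. A Ppm1b region, chr17:84958022-84959551, was called in E. coli replicate 1, conventional replicate 2 and germ-free replicate 2.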

How the data were processed

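The deposited files were 6 peak lists, 1 for each library, with no pooling of replicates. The submitters' processing notes list the tools Bowtie 1.2.0 and MACS2 2.1.1.20160309 with build mm10. Settings of the peak caller were not given in the sources used. The authors' lists gave the pileup signal (coverage at the summit), the −log10 p-value and −log10 q-value, the fold enrichment (a ratio to background), a region class and RefSeq gene symbols. As deposited, the second germ-free list had 13 cells under 14 header names, without summit or pileup, and its columns were told apart by their values. Further summits of an interval were joined to it, with the most significant kept, and mitochondrial intervals were left out. Weaker enrichment is not in the lists, so an absent interval is not an absent mark.

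Widths, percentiles and calls were computed per library in Python 3.11.15 with pandas 2.3.3, NumPy 2.4.6 and SciPy 1.17.1, and plotted with matplotlib 3.10.9. A region was called in a library where any interval overlapped it by 1 bp. Single-gene regions that overlapped a shared region (107) were left out. Differences were compared by two-sided exact sign-flip permutation over 6 libraries, or by exact permutation of 2 against 2 libraries. Benjamini-Hochberg adjustment covered the 4 shared or divergent differences, with a threshold of 0.05. The functions were tested on simulated lists. Starts, names and promoter windows came from the RefSeq tables of GRCm38.p6, the assembly behind mm10. The members, gene lists and known pairs were chosen with earlier results of these data known. Named regions were the 12 of highest mean percentile among those called in all 6 libraries, 6 per ordered pair of groups, the 5 widest, the 5 with most symbols, and 23 known pairs. Some of the known pairs are counted but not reported here by name. The number of reads behind each list was not used, and intervals on percentages are Wilson intervals at 95%, for counting error only.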

Additional observations from a re-analysis of the deposited data

Results flagged for a closer look

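Promoter regions with 2 or more symbols and no coding transcript were outside every comparison. There were 21 such regions, called in 4 and 3 cases in the E. coli libraries, 4 and 15 in the conventional and 9 and 18 in the germ-free libraries. Of these, 2 were called in all 6 libraries, the microRNA pairs Mir192/Mir194-2 and Mir194-1/Mir215, which are abundant in intestinal epithelium.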

How the results depend on the processing

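Of the alternatives run, 88 left the direction and the side of the threshold (or a count within 1.5 times), 23 moved a count and 8 turned a sign. The 88 include the divergent difference with the own side and the CpG quintiles together, which fell from 16.1 to 1.48 points. None of the differences passed the adjusted threshold under any setting run, but no setting could have passed. For each setting the adjustment used the new p of that difference with the main p-values of the others. Adjusted in that way, even 0.03125, the smallest exact sign-flip permutation p with 6 libraries, stays above the threshold. The side of the threshold was therefore fixed in advance, and only the direction and the counts could differ. With 5 libraries the smallest possible exact sign-flip permutation p is 0.0625, and with 2 against 2 libraries the smallest exact permutation p is 0.3333. The width difference was −56.1 bp with equal list lengths and −3.70 bp by mean width (the mean was added after the data were seen). The rank difference was −0.922 at −log10 q of 5 or more. For the shared share, E. coli minus germ-free was 2.49 points at −log10 q of 5 or more and 0.228 with equal list lengths. Conventional minus germ-free was 0.683 with equal list lengths and 0.979 over all nuclear intervals, and conventional minus E. coli was −4.28 at −log10 q of 5 or more. The causes were not tested. With the replicate block (sign flips within paired numbers) those 3 differences stayed at −1.33, −0.838 and 0.495 (exact permutation p 0.5, 0.5 and 1), and the labels do not say that equal numbers pair libraries.

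With equal list lengths the regions called in both libraries of one group and neither of another numbered 6 and 6 for E. coli against conventional and germ-free, 6 and 5 for conventional against E. coli and germ-free, and 8 and 5 for germ-free against E. coli and conventional. At −log10 q of 5 or more, conventional without E. coli gave 85, germ-free without E. coli 82 and germ-free without conventional 10. Per gene set, conventional without germ-free gave 6 and germ-free without conventional 11. Leaving out 1 library at a time gave 0 to 7 for both E. coli patterns, 205 to 1251 and 18 to 446 for conventional without E. coli and without germ-free, and 245 to 1223 and 26 to 436 for germ-free without E. coli and without conventional. The highest of these came without the first library of the group that had the calls, for E. coli without the second. The divergent difference ranged from 12.1 to 19.0 points, the call rate difference from 0.611 to 1.42, the width difference from 2.30 to 11.3 bp and the rank difference from 0 to 4.23 without 1 library. The number of reads behind each list was not used, so what depth limits was not tested.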

Other observations

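Further regions called in all 6 libraries, chosen here after their values were seen, included genes of trafficking, the cytoskeleton and the gut surface. Copa (a subunit of the COPI coat) and Ncstn (nicastrin of the gamma-secretase complex) shared a region of 1904 bp, listed as Copa/Ncstn. Rhoa/Tcta, the promoter of a small GTPase of actin control, had one of 758 bp, and Arpc4/Tada3, of an actin-nucleating complex subunit and an acetyltransferase adaptor, one of 1364 bp. Slc6a19, a neutral amino acid transporter of the brush border, was listed as 5430425J12Rik/Slc6a19 with 1876 bp. Lgals4/Lgals6, galectins of the gut epithelium, had 2036 bp. Its 2 symbols lie on the same strand with a gap of 0 between the starts, and how reads of similar galectin genes were placed is not given in the sources used here, so which gene the call belongs to is uncertain. Hist1h2ac/Hist1h2bc, a pair of histone genes, had 1864 bp.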
